A study of Mus musculus with 10 samples.

Results

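Kap, Cyp7b1 and Gusb, 3 genes long known as targets of androgens in the mouse kidney, were followed in kidney RNA of C57BL/6 mice kept at 400 m or at 4200 m. They were taken as classic androgen targets, with earlier results of these data in view, and each of the 3 names was found once among the 55952 genes of the deposited table. The control group (5 libraries) came from C57BL/6 mice at 400 m and the hypoxia group (5 libraries) from C57BL/6 mice at 4200 m, sampled after 30 days. The labels give no other treatment or allele for either group, and no age or sex. Y-linked Ddx3y was at 12.2 to 16.3 FPKM and Xist at no more than 0.0188 FPKM over the 10 libraries, as in males.

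In male mice, testosterone reaches the cells of the proximal tubule and binds the androgen receptor, a ligand-activated transcription factor that then acts on genes of these cells. Kap encodes the kidney androgen-regulated protein, a small secreted protein made almost only in the proximal tubule and among the most abundant messenger RNAs of the male mouse kidney. Cyp7b1 encodes an oxysterol 7-alpha-hydroxylase, which also hydroxylates steroids related to androgens and is higher in male than in female mouse kidney. Gusb encodes beta-glucuronidase, a lysosomal enzyme that removes glucuronic acid from sugar chains and steroid conjugates, and its induction by testosterone in the mouse kidney is a classic model of slow androgen action.

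Levels are in FPKM, a count of fragments divided by gene length and by a scale factor of its library. Levels of different genes can so be set side by side. The 10 libraries held 16561672 (hypoxia replicate 5) to 17845464 reads assigned to genes. The scale factor did not simply follow these numbers. For a gene of 1 kb, 3 reads made 0.165 FPKM in hypoxia replicate 5 but 0.179 FPKM in control replicate 1, which held more reads (17277475). Proximal tubule markers summed to 5965 to 7172 FPKM in controls and 3416 to 6623 FPKM in hypoxia, while 6 retina genes, the tissue named in the extraction protocol, summed to at most 0.656 FPKM in any library. A pair of hypoxia libraries stood apart. Hypoxia replicate 4 held 739.6 FPKM over 6 adrenal markers, against at most 2.35 FPKM in controls, and hypoxia replicate 5 held 451.7 FPKM over 6 lymphoid markers, against at most 1.91 FPKM in controls, together with 32.9 FPKM over 6 pancreas markers. The fits of the 3 genes and the counts of the gene lists are therefore also given without these 2 libraries. Other values are from all libraries unless stated. Nothing in the labels says whether each library is a separate animal, so the p-values describe variation among the sequenced samples, which may be technical. Altitude and place of housing cannot be told apart.

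The DNA before the start of transcription is shown because both the androgen receptor and the hypoxia-inducible factor HIF act by binding DNA near genes. RefSeq (GRCm38.p6) gave this sequence for 2 of the 3 genes, Kap and Gusb. The 250 bases before each RefSeq start were searched on both strands for the androgen receptor half-site AGAACA, the full palindrome (AGAACA, any 3 bases, TGTTCT), the HIF core as ACGTG or GCGTG, and the TATA box TATAAA. The Kap start used by RefSeq (position 133853667) lies 95 bases inside the gene as the table draws it, so only the bases outside that gene and a short stretch around the TATA box are printed. Capitals mark the matches, and each sequence runs 5′ to 3′ on the minus strand.
Kap, chr6:133853763-133853917: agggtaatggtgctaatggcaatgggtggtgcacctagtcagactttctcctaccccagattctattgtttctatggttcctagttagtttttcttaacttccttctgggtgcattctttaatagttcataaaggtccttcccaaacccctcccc
Kap, TATA box, chr6:133853681-133853710: gagtacaggatgTATAAAagcccaggagga
Gusb, chr5:130003050-130003299: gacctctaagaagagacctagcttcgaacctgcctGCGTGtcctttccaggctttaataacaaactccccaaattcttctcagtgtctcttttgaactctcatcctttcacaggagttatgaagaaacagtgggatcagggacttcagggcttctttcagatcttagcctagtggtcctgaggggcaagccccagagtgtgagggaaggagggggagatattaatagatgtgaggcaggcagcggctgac
The Kap window held 1 TATA box, from -31 to -26 relative to the start, a motif found in 12.4% of 32851 RefSeq windows of the same length. The Gusb window held no TATA box and 1 GCGTG, from -215 to -211, a motif found in 28.2% of the windows. Neither window held the half-site, which 16.1% of the windows held, the palindrome (0.00913%) or ACGTG (16.6%). These are matches of letters in a short window and were not tested for binding.

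Kap was the most abundant gene of the kidney at 400 m and lost that place at 4200 m. Control replicates 1 to 5 held 22476, 28475, 28030, 24259 and 25258 FPKM. Hypoxia replicates 1 to 5 held 22616, 19187, 8239, 10251 and 12397 FPKM. Hypoxia replicate 1 lay within the control range, at its lower end, replicate 2 lay just below it, and replicates 3, 4 and 5 were far below, so that the groups overlapped by 1 library. By FPKM, Kap ranked 1 among all genes in each of the 5 control libraries and 2 to 6 in hypoxia. The rank also depends on other genes. Hypoxia replicate 1 ranked 2 with 22616 FPKM, while control replicate 1 ranked 1 with 22476 FPKM.

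Kap reads made up 1.54 to 1.91% of all reads in controls and 0.581% (replicate 3, Wilson 95% interval 0.578 to 0.585%) to 1.601% (replicate 1, 1.596 to 1.607%) in hypoxia. The intervals cover counting error only and are far narrower than the spread between hypoxia libraries. Kap averaged 25699 ± 2539 FPKM at 400 m and 14538 ± 6114 FPKM at 4200 m (SD, n = 5 each). The SD was 9.88% of the mean in controls and 42.1% in hypoxia, where the highest library held 2.74 times the level of the lowest. On the log2(FPKM + 0.5) scale the fold change was -0.92 (SE 0.266, 95% interval -1.51 to -0.33), a level 1.89 times lower in hypoxia, with a limma adjusted p of 0.0498. An exact two-sided permutation test on the FPKM means gave p = 0.0159, the smallest that 5 against 5 libraries allow being 0.00794.

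Kap was called at the edge of the threshold. Of the 10 fits without 1 library, 8 lost the call (limma adjusted p up to 0.113, without control replicate 2) and it held without hypoxia replicate 1 or 2 (0.0250 and 0.0363). On the FPKM means without 1 library, the exact permutation p of Kap, not adjusted, was 0.00794 to 0.0317. When hypoxia replicates 4 and 5 were left out, the log2 fold change of Kap was -0.74 (limma adjusted p = 0.129; exact permutation p = 0.0357), and the lowest level of all, 8239 FPKM, came from hypoxia replicate 3, where adrenal, lymphoid and pancreas markers summed to 3.21, 5.45 and 0 FPKM.

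Cyp7b1 fell the most of the 3 genes and in every hypoxia library. Control replicates 1 to 5 held 83.6, 113.6, 111.3, 104.3 and 63.4 FPKM. Hypoxia replicates 1 to 5 held 13.5, 18.8, 15.5, 12.02 and 9.35 FPKM. The highest hypoxia library lay below the lowest control library (18.8 against 63.4 FPKM), and hypoxia replicate 5, which had the least proximal tubule RNA, was the lowest. These levels rested on 2281 to 4105 reads in controls and 369 to 740 reads in hypoxia. By FPKM the gene ranked 393 to 752 in the controls and 2482 to 5001 in hypoxia.

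The log2 fold change of Cyp7b1 was -2.74 (SE 0.204, 95% interval -3.20 to -2.29, limma adjusted p = 8.04e-05), a level 6.70 times lower in hypoxia. It was the 11th most negative of the 15264 genes tested. Without hypoxia replicates 4 and 5 it was -2.52 (limma adjusted p = 0.000312), and the call held in all 10 fits without 1 library. In whole-kidney RNA, fewer cells that express a gene and less RNA per cell cannot be told apart.

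Gusb was the least abundant of the 3 genes. Control replicates 1 to 5 held 11.5, 10.7, 8.69, 8.61 and 10.2 FPKM. Hypoxia replicates 1 to 5 held 6.10, 5.99, 6.48, 7.60 and 10.8 FPKM. Hypoxia replicates 1 to 4 lay below all controls, and replicate 5 lay above 4 of the 5 controls. The gene rested on 664 to 879 reads in controls and 486 to 899 in hypoxia, so counting error was small beside these differences. Its share of reads in hypoxia replicate 5 was 0.00543% (Wilson 95% interval 0.00508 to 0.00579%) and in hypoxia replicate 1 it was 0.00278% (0.00254 to 0.00304%).

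With all libraries Gusb averaged 9.93 ± 1.27 FPKM at 400 m and 7.40 ± 2.03 FPKM at 4200 m (SD, n = 5 each). The log2 fold change of -0.43 (SE 0.154, 95% interval -0.77 to -0.085) did not pass, with a limma adjusted p of 0.0981, and the exact permutation p was 0.0556. Without hypoxia replicate 5 it was -0.56 (limma adjusted p = 0.00585), and without hypoxia replicates 4 and 5 it was -0.63 (95% interval -0.86 to -0.41, limma adjusted p = 0.00635), with 6.19 ± 0.255 FPKM in the 3 hypoxia libraries left. Hypoxia replicate 5 was also the library with 451.7 FPKM of lymphoid and 32.9 FPKM of pancreas markers and the lowest sum of proximal tubule markers (3416 FPKM). The part of these tissues in the Gusb level was not tested.

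**Figure D1:**
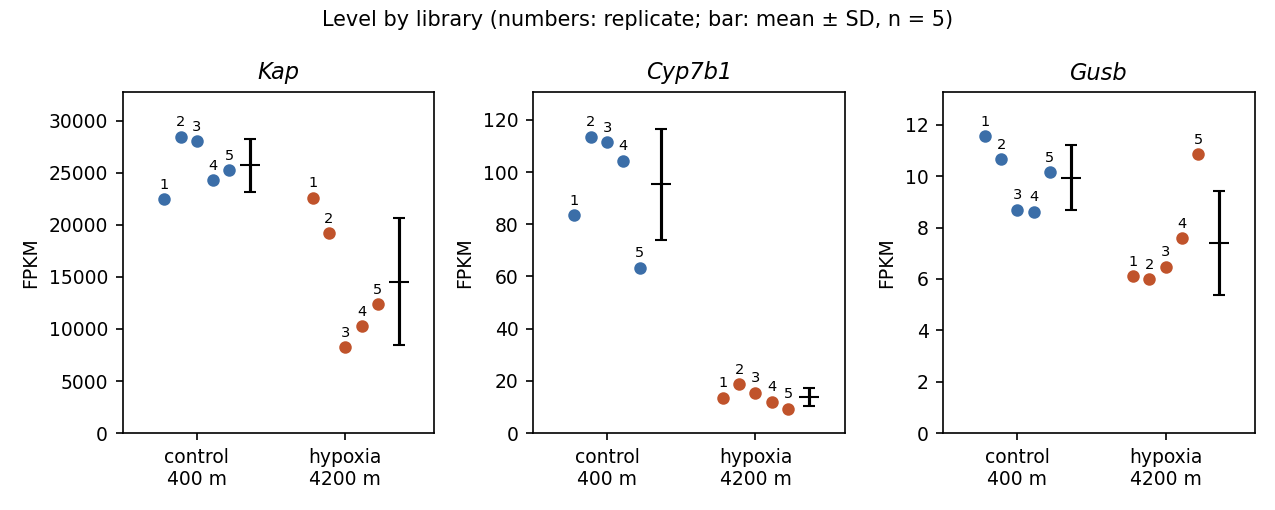
Level of each gene in FPKM (vertical axis, from 0) in the 5 control and 5 hypoxia libraries; numbers beside the points are replicates and the bars are mean ± SD. Cyp7b1 shows no overlap, hypoxia replicate 1 of Kap (22616 FPKM) lies in the control range, and hypoxia replicate 5 of Gusb (10.8 FPKM) lies among the controls.

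Read against the whole table, 1189 of 15264 tested genes (7.79%) were called lower in hypoxia and 559 (3.66%) higher, and of the 3 members Kap and Cyp7b1 were called lower and none higher. Rescaled without the 100 most abundant genes, the split was 767 lower and 918 higher, and Kap missed the threshold. Without hypoxia replicates 4 and 5, 7.75% of 14724 genes were called lower and 4.53% higher, and the members called lower were then Cyp7b1 and Gusb. With all libraries the groups did not overlap in 8.54% of genes that were lower in hypoxia (Cyp7b1 among the members) and in 5.68% that were higher (no member). Without replicates 4 and 5 these shares were 11.8% (Cyp7b1 and Gusb) and 9.73% (no member). The log2 fold change over all tested genes had a median of 0.012.

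**Figure D2:**
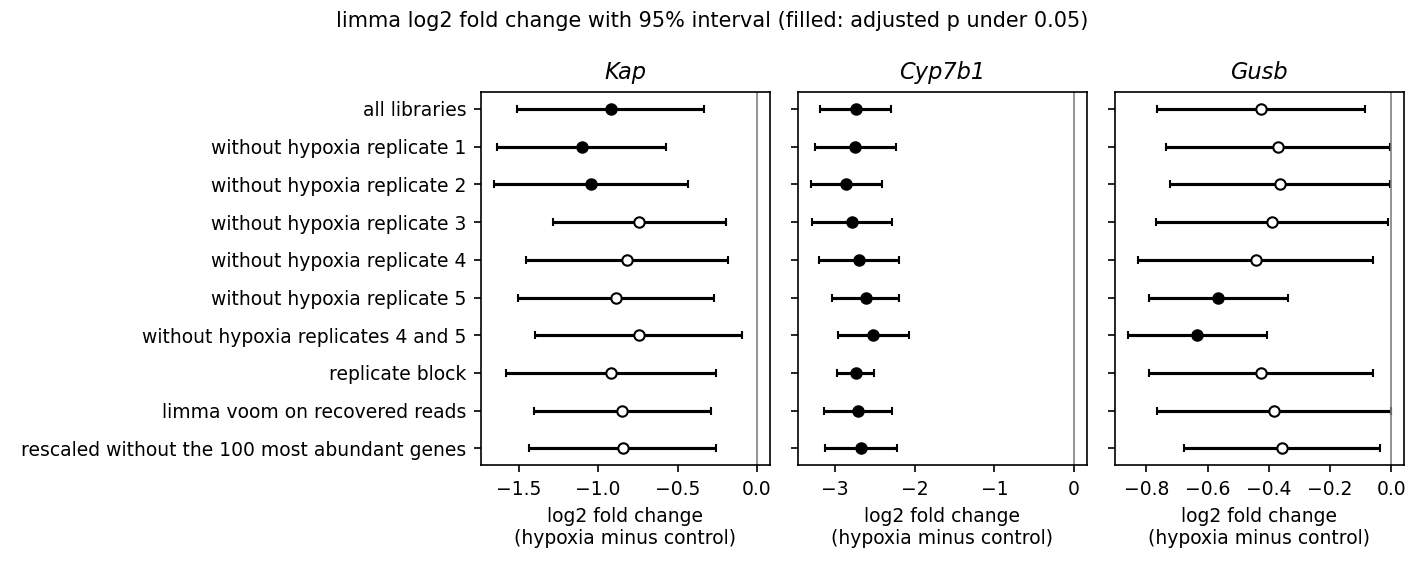
limma log2 fold change (horizontal axis, hypoxia minus control, a scale of its own in each panel) with its 95% interval for each gene under 10 settings; filled points have an adjusted p under 0.05. Cyp7b1 is filled throughout (-2.52 to -2.86), Kap only with all libraries and without hypoxia replicate 1 or 2, and Gusb only where hypoxia replicate 5 is left out.

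The order of the levels was the same in all 10 libraries for Kap, which stood above both other genes, and changed for the other pair. In controls Cyp7b1 was 6.24 to 12.8 times as abundant as Gusb, per length. In hypoxia this ratio was 0.862 to 3.14, and in hypoxia replicate 5 Gusb stood above Cyp7b1. Kap was 233 to 399 times as abundant as Cyp7b1 in controls and 533 to 1674 times in hypoxia.

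Each gene was also set against markers of the proximal tubule within the same library, as log2(FPKM + 0.5) of the gene minus the mean over the markers. Against 12 markers of the whole proximal tubule, Cyp7b1 was at -1.24 ± 0.445 in controls and -3.70 ± 0.238 in hypoxia (SD, n = 5 each), a difference of -2.46 with no overlap (exact permutation p = 0.00794). The difference of Kap was -0.63 (exact permutation p = 0.0794), and that of Gusb -0.14 (exact permutation p = 0.746). These are 3 tests, with p-values not adjusted.

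The libraries behind those differences were not the same for Kap and Gusb. For Kap, hypoxia replicates 1 and 5 (6.80 and 6.84) lay within the control range of 6.65 to 7.02, replicate 2 (6.54) lay just below, and replicates 3 and 4 were low at 5.16 and 5.77. Hypoxia replicate 5, low in Kap by FPKM, was thus not low relative to these markers. For Gusb, hypoxia replicates 1 to 3 were at -4.95 to -5.04, below the controls at -4.61 to -4.22, replicate 4 was at -4.54 and replicate 5 at -3.26. Without hypoxia replicates 4 and 5 the difference of Gusb was -0.58 (exact permutation p = 0.0179, the smallest that 5 against 3 allow), and that of Kap -0.69 (p = 0.0714).

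The late part of the proximal tubule, where Kap and Cyp7b1 are strongly expressed, itself had lower markers. Of 8 late proximal markers, 5 were called lower and 0 higher, against 7.79% and 3.66% of all tested genes. Among these, the call of Slc22a13 was lost in 5 of the 10 fits without 1 library (limma adjusted p up to 0.0642, without control replicate 3). Their median log2 fold change was -0.97, against 0.012 over all genes. Without hypoxia replicates 4 and 5, 5 were also called lower (median -0.67). Slc5a10, a sugar transporter, fell from 119.3 ± 22.7 to 34.0 ± 9.54 FPKM and Acy3, an aminoacylase, from 1052 ± 138.5 to 323.9 ± 102.5 FPKM (SD, n = 5 each). Slc7a13, an amino acid transporter of that segment, was at 459.3 ± 87.0 and 406.6 ± 124.2 FPKM and did not pass (limma adjusted p = 0.537). Of the 12 general proximal tubule markers, 1 was called lower and 0 higher (median -0.19), and without hypoxia replicates 4 and 5 the counts were 2 lower and 1 higher (median 0.030).

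Against the 8 late markers, the difference of Kap was 0.091 (exact permutation p = 0.698) and that of Gusb 0.58 (p = 0.159), both of opposite sign to those against the general markers. Without hypoxia replicates 4 and 5 the difference of Kap was -0.025 (exact permutation p = 0.946) and that of Gusb 0.085 (exact permutation p = 0.714), so the positive sign for Kap and most of the difference for Gusb rested on those 2 libraries. Kap was at 7.02 to 7.39 in controls, and among hypoxia libraries replicate 3 alone lay below that range, at 6.504. Cyp7b1 remained lower, at a difference of -1.73 with no overlap (exact permutation p = 0.00794), and of -1.80 without replicates 4 and 5 (exact permutation p = 0.0179). The part that a change in this segment has in the levels of the 3 genes was not tested. Nor was it tested whether the late markers themselves respond to androgens, so they may not be a reference independent of the members.

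**Figure D3:**
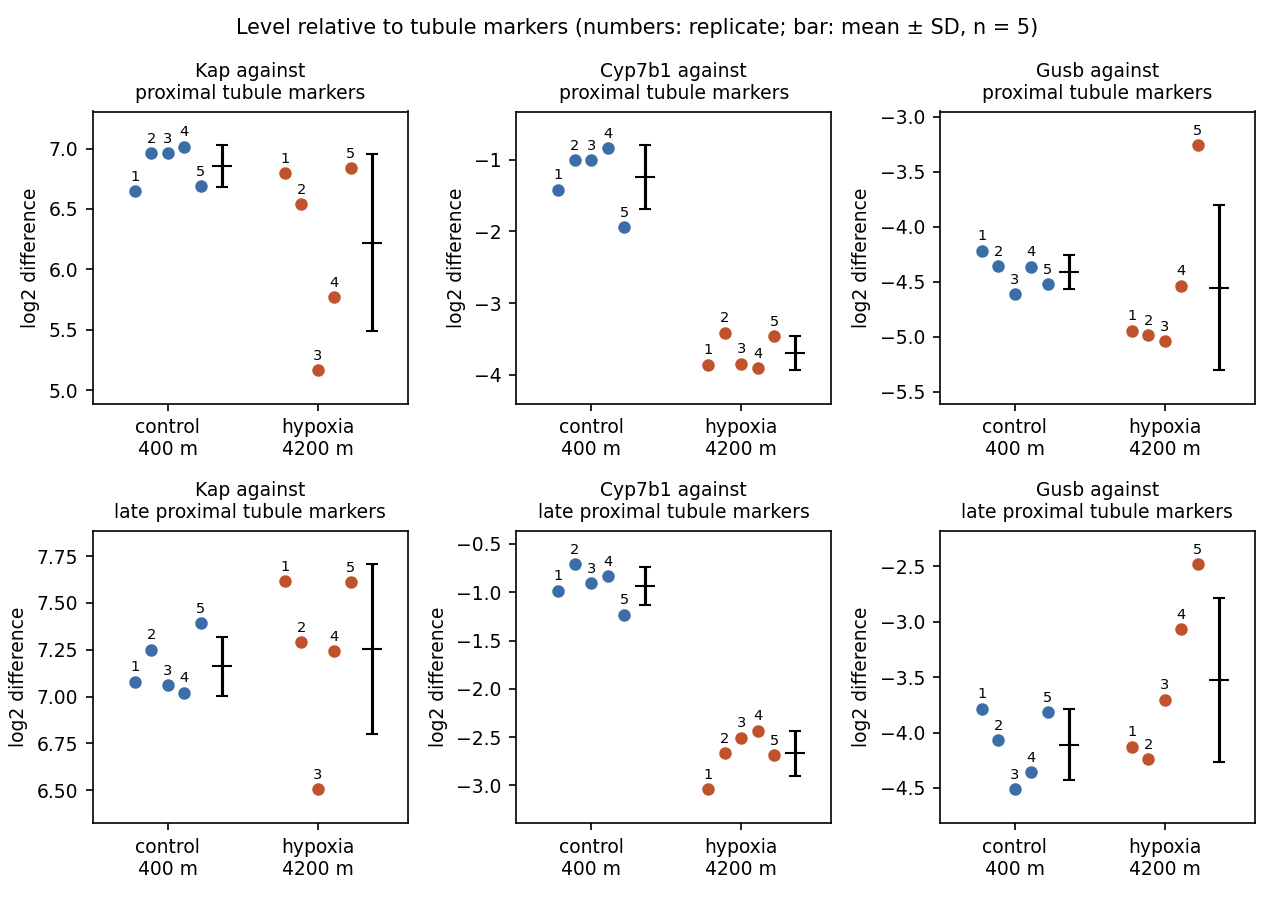
Each gene as log2(FPKM + 0.5) minus the mean of 12 proximal tubule markers (top) or 8 late proximal tubule markers (bottom), by library, with replicate numbers and mean ± SD (n = 5). Cyp7b1 is lower in every hypoxia library on both rows, while Kap is low in hypoxia replicates 3 and 4 on the top row and in replicate 3 on the bottom row.

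Other genes known for androgen induction or male bias in the mouse kidney went mostly, not only, in the same direction. Of 12 such genes beside the members, all tested, 5 were called lower and 1 higher, against 7.79% and 3.66% of all tested genes. Their median log2 fold change was -0.58, against 0.012 over all genes. Without hypoxia replicates 4 and 5 the counts were again 5 and 1, with a median of -0.49. Like the other lists, this list was chosen with earlier results of these data known, so the counts describe it and are no test. Odc1, ornithine decarboxylase of polyamine synthesis, was at 236.7 to 437.7 FPKM in controls and 103.8 to 126.7 FPKM in hypoxia (log2 fold change -1.51, limma adjusted p = 0.000471). Slco1a1, an organic anion transporter, was at 34.2 to 82.4 and 2.36 to 9.10 FPKM (-3.35, limma adjusted p = 0.000880), and Slc22a6, another organic anion transporter, at 198.9 to 305.0 and 78.9 to 146.7 FPKM (-1.18, limma adjusted p = 0.00429). None of these groups overlapped.

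Acsm3 and Cyp2j13, named after their values were seen, were the other 2 lower genes, at -2.33 and -0.75. The higher one was Cyp4a12b, a fatty acid hydroxylase, which rose from 5.23 ± 1.13 to 8.89 ± 2.11 FPKM (limma adjusted p = 0.0396), with overlapping groups. Its call was lost in 8 of the 10 fits without 1 library (adjusted p up to 0.0885, without hypoxia replicate 4), and its reads may be shared with its near-identical neighbour Cyp4a12a, which did not pass (limma adjusted p = 0.563). Nudt19, also known as the androgen-regulated RP2 gene, had a log2 fold change of -0.73 (limma adjusted p = 0.0688), Adh1, an alcohol dehydrogenase, one of -0.39 (0.189), and Cyp2e1 one of 0.43 (0.135).

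Of 5 genes listed for a female bias, 3 were called higher and 1 lower, also without hypoxia replicates 4 and 5, against 3.66% and 7.79% of all tested genes. Slc7a12, an amino acid transporter, was at 2.76 to 8.96 FPKM in controls and 40.9 to 92.4 FPKM in hypoxia. Prlr, the prolactin receptor, was at 0.945 to 2.13 and 5.65 to 10.6 FPKM, and Cyp4a14, a fatty acid hydroxylase, at 35.5 to 65.1 and 101.5 to 263.8 FPKM. Cyp2a4, a steroid 15-alpha-hydroxylase with a near-identical copy in the genome, is female-biased in mouse liver but induced by androgens in mouse kidney. Its place in this list is therefore open to question. That remark was made with its value already seen, and the counts keep Cyp2a4 as listed. It fell from 122.8 ± 14.9 to 53.0 ± 16.2 FPKM (log2 fold change -1.25, limma adjusted p = 0.00400). The median over the 5 genes as listed was 1.82.

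**Figure D4:**
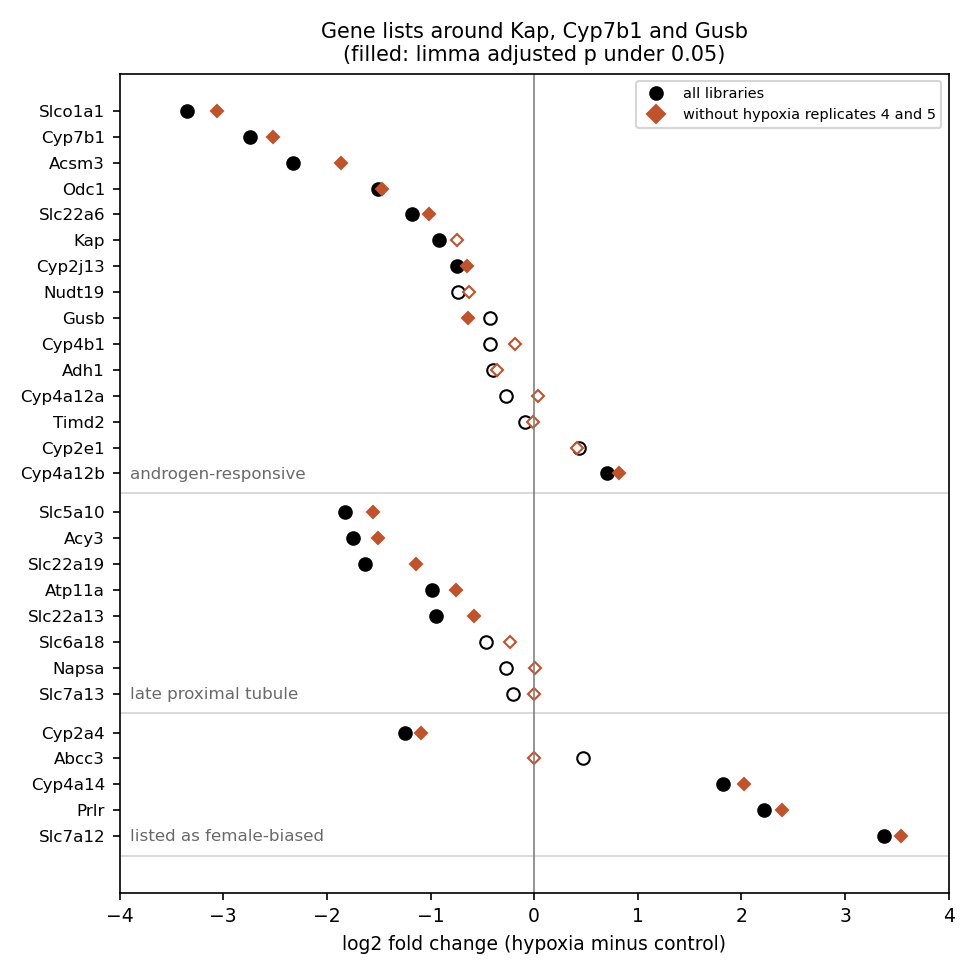
limma log2 fold change (horizontal axis) of 15 androgen-responsive genes, 8 late proximal tubule markers and 5 genes listed as female-biased (Cyp2a4 by its pattern in liver), with all libraries (circles) and without hypoxia replicates 4 and 5 (diamonds); filled symbols have an adjusted p under 0.05. In the androgen-responsive group 7 circles are filled on the left and 1, Cyp4a12b, on the right.

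The receptor needs helper proteins to bind hormone and cofactors to act on genes. Of 10 such genes 3 were called lower and 0 higher, against 7.79% and 3.66% of all tested genes. Their median log2 fold change was -0.10, against 0.012 over all genes, and the same counts were found without hypoxia replicates 4 and 5. The 3 were the chaperones Hsp90aa1, which fell from 154.9 ± 13.5 to 78.4 ± 9.44 FPKM, and Hsp90ab1, and the co-chaperone Fkbp4, which fell from 108.1 ± 4.64 to 60.4 ± 8.82 FPKM (SD, n = 5 each). None of the 5 nuclear receptor cofactors Ncoa1, Ncoa2, Ncoa3, Ncoa4 and Ncor1 passed, with log2 fold changes from -0.23 to 0.086.

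Enzymes that make or inactivate androgens were in part low in the kidney. Of 19 listed genes 10 could be tested, and 3 were called lower and 0 higher, with a median log2 fold change of -0.11, against 7.79% lower, 3.66% higher and a median of 0.012 over all tested genes. Hsd17b2, which oxidises testosterone to a weaker steroid, fell from 9.60 ± 2.24 to 2.59 ± 0.872 FPKM (limma adjusted p = 0.00140). Hsd17b11 fell from 112.2 ± 20.2 to 63.8 ± 13.04 FPKM. Akr1c14, which reduces dihydrotestosterone, fell from 88.6 ± 16.4 to 39.0 ± 20.04 FPKM (limma adjusted p = 0.0235), a call lost without hypoxia replicates 4 and 5 (adjusted p = 0.0594) and in 3 of the 10 fits without 1 library. Without replicates 4 and 5, 2 genes were lower and 1 higher, the latter Srd5a1, a steroid 5-alpha-reductase named after its value was seen (log2 fold change 0.51, limma adjusted p = 0.0497).

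Around Cyp7b1, genes of oxysterol and bile acid metabolism were called lower in 3 of 9 tested cases and higher in 0, against 7.79% and 3.66% of all tested genes. Their median log2 fold change was -0.11, against 0.012 over all genes. The counts were the same without hypoxia replicates 4 and 5 (median -0.089). Amacr, a racemase of bile acid synthesis, fell from 157.1 ± 22.9 to 67.6 ± 24.3 FPKM, Acox2, a peroxisomal oxidase of bile acid synthesis, from 41.3 ± 5.10 to 23.8 ± 6.92 FPKM, and Nr1h3, the oxysterol receptor LXR alpha, from 21.9 ± 1.92 to 15.2 ± 2.43 FPKM (SD, n = 5 each). Cyp27a1, which makes an oxysterol that Cyp7b1 uses, was at 16.9 ± 1.37 and 18.8 ± 3.03 FPKM and did not pass (limma adjusted p = 0.416). Ch25h, which makes another, was at 0.767 ± 0.299 and 1.02 ± 0.462 FPKM (limma adjusted p = 0.524).

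Among 25 other lysosomal genes, set beside Gusb, 3 were called lower and 0 higher, with a median log2 fold change of -0.020. That is near the 7.79% of all tested genes called lower, and rescaled without the 100 most abundant genes the list had 1 lower and 1 higher. The 3 were Glb1, beta-galactosidase, which fell from 57.2 ± 4.66 to 40.0 ± 8.24 FPKM, Galns, which fell from 46.4 ± 5.47 to 29.9 ± 6.502 FPKM, and Arsb, which fell from 41.9 ± 3.19 to 27.5 ± 6.39 FPKM (SD, n = 5 each). Leaving out 1 library at a time ended the call of Glb1 in 7 of 10 fits, of Galns in 2 and of Arsb in 5, with limma adjusted p up to 0.0932 for Glb1 and 0.0554 for Galns, both without control replicate 2, and 0.0828 for Arsb, without control replicate 1. Without hypoxia replicates 4 and 5, 4 were lower and 1 higher, with a median of 0.021. Ces1e, which encodes egasyn, a carboxylesterase that holds part of the beta-glucuronidase in the endoplasmic reticulum, was at 39.3 ± 4.62 and 40.1 ± 11.1 FPKM (limma adjusted p = 0.955). Ppib and Ppia, cyclophilins of which the former has been described as a partner of the Kap protein, did not pass either (log2 fold changes -0.19 and 0.44).

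Genes with the most similar profile were found by the root mean square difference between log2(FPKM + 0.5) profiles centred over the 10 libraries, among 9950 protein-coding genes. For Kap these were Atp11a, a lipid flippase and 1 of the 8 late proximal markers (0.18), Snx31 (0.20) and Slc52a3, a riboflavin transporter (0.20), against a median of 0.62 over all genes. Atp11a was at 162.9 to 201.3 FPKM in controls and 66.7 to 133.3 FPKM in hypoxia. For Cyp7b1 they were Sec14l3 (0.28), Akr1c18 (0.29) and Slc9a8 (0.39), against a median of 1.40, and for Gusb they were Bop1 (0.12), the lysosomal sulfamidase gene Sgsh (0.14) and Entpd6 (0.14), against a median of 0.38. The highest hypoxia library of Sgsh, at 4.36 FPKM, lay above its control range (3.44 to 4.13 FPKM), while that of Gusb lay within its own. The distance between the members themselves was 0.58 for Kap and Gusb, 1.01 for Kap and Cyp7b1 and 1.27 for Cyp7b1 and Gusb.

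All 3 genes lie on the minus strand. In the coordinates of the deposited table Kap (ENSMUSG00000032758) spans chr6:133849851-133853762. The span of Cyp7b1 (ENSMUSG00000039519) is chr3:18071950-18243338, and that of Gusb (ENSMUSG00000025534) is chr5:129989011-130003049. The GENCODE M21 annotation of GRCm38 lists 2 transcripts for Kap, 1 for Cyp7b1 and 6 for Gusb, of which 3 are protein-coding. No other gene of the table overlaps Kap or Gusb, and Cyp7b1 spans 1 small RNA gene, Gm23686.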

How the data were processed

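RNA from mouse kidney was sequenced in 10 libraries, 5 per group. Groups follow the treatment label, and the titles number the replicates. The authors deposited FPKM values for 55952 genes. Gene length, an other unit in the deposited table, served to recover reads. The submitters' processing notes name HISAT2 2.0.5 and list a human build. The identifiers are of the mouse, and 99.4% of 55141 genes found in GENCODE M21 had identical coordinates, so GRCm38 is used. For the counting tool, strand and reads with several matches, the choice is not given in the sources used here.

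Multiplied by length, 99.97 to 100% of the values above 0 were whole numbers of reads (tolerance 0.05). Median-of-ratios scale factors of the deposited values were 1.00 for every library. The deposited values were thus already on that scale, not divided by depth alone, and this scaling left them as they were. The 15264 genes averaging 0.5 FPKM or more, all 3 members among them, were tested on log2(FPKM + 0.5), which understates changes of low genes, with limma 3.58.1 in R 4.3.3 (trend and robust). The model held only the group, with two-sided p-values, Benjamini-Hochberg adjustment over all genes and a threshold of 0.05. Exact permutation tests used 252 regroupings (56 without hypoxia replicates 4 and 5) and are given unadjusted, a departure from the planned adjustment over the members. The limma procedure was also run on simulated counts, with the same dispersion for every gene and no libraries of mixed tissue. That run therefore does not bear on how sure the calls given here are.

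The members and gene lists were chosen with earlier results of these data known. Named genes are the members, in each pathway list the called genes of lowest p, at most 4 (where none was called, the 2 most abundant), and the 3 nearest profiles of each member among protein-coding genes averaging 2 FPKM or more; others are said to be named after their values were seen, or stand as further members of a list described by its counts. The receptor gene itself and 1 listed cofactor are not reported here. Alternatives covered pseudocount, filter, scaling, error model, limma voom on recovered reads, a replicate block and the omission of libraries. Figures were drawn with matplotlib 3.10.9.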

Additional observations from a re-analysis of the deposited data

Results flagged for a closer look

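Gusb relative to the 12 proximal tubule markers was -3.26 in hypoxia replicate 5 on the log2 scale, apart from the other 4 hypoxia libraries, which lay between -5.04 and -4.54. Of the 12 sets of 5 libraries examined this way (3 genes, 2 measures, 2 groups) it was the only one with a library beyond the limit of Dixon's gap test. Chance alone passes that limit in about 1 in 20 sets, so 1 among 12 is about what chance gives. That library also held 451.7 FPKM of lymphoid markers and the lowest sum of proximal tubule markers, 3416 FPKM. The part of either in the value was not tested.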

How the results depend on the processing

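Cyp7b1 kept its direction and its side of the threshold in all 21 alternatives of the limma fit, from -2.52 to -2.88. Median-of-ratios scaling, with all libraries or without hypoxia replicates 4 and 5, could hardly change a fit. The deposited values were already on that scale. Kap kept its direction but lost its call in 15 of 21. Its log2 fold change was -0.85 with limma voom on recovered reads (adjusted p = 0.0532) and -0.85 when rescaled without the 100 most abundant genes (0.0655), -0.92 without a filter (0.0973) and with a pseudocount of 1 (0.0515), and -0.74 without hypoxia replicates 4 and 5, with or without median-of-ratios scaling (0.129). Without 1 library it ranged from -1.10 to -0.74. Gusb was called in 3 alternatives, at -0.63 without hypoxia replicates 4 and 5 (with either scaling) and at -0.56 without hypoxia replicate 5. Its range without 1 library was -0.56 to -0.36, and the other 9 of those 10 fits did not pass. On the FPKM means Gusb differed by -3.75 without replicates 4 and 5 (exact permutation p = 0.0179) and by -3.39 to -2.13 without 1 library.

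Relative to proximal tubule markers, Kap ranged from -0.79 to -0.37 and Gusb from -0.46 to -0.017 without 1 library. Gusb was at -0.58 without hypoxia replicates 4 and 5, and against the late markers the signs turned, to 0.091 for Kap and 0.58 for Gusb. With those markers and without hypoxia replicates 4 and 5, an alternative chosen after seeing the data, Kap was at -0.025 and Gusb at 0.085, so the turn for Kap rested on those 2 libraries. The cause was not tested.

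The labels do not say whether the replicate numbers pair the samples. Deviations of same-numbered libraries from their group means correlated at -0.077 to 0.086 over 15264 genes. Only replicate 2 correlated best with its own number in both directions. Correlations this weak cannot decide whether the samples were paired. With the replicate block the log2 fold change of Kap was -0.92 (adjusted p = 0.0954), and 265 genes were called higher and 734 lower. In the block on the marker-relative values the difference of Cyp7b1 was -2.46 (exact p = 0.0625, the smallest that 5 pairs allow). Over all genes, 559 were called higher and 1189 lower. The counts were 263 and 703 without a filter, where more genes are tested, and 918 and 767 when rescaled without the most abundant genes, which moved the median of all genes to 0.076. Without 1 library they ranged from 221 to 1094 higher and from 603 to 1630 lower, the highest of both without hypoxia replicate 5. Depth did not limit the members, which rested on at least 369 reads in every library.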

Other observations

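The nearest tested genes on either side of each member were looked up after the data were seen. Beside Cyp7b1, the small RNA gene Gm23726 (annotated as a miRNA of 67 bases on the opposite strand, 2558 bases beyond the 3′ end of Cyp7b1, chromosome 3 from 18069326 to 18069392) held 9 to 20 reads in each control and 0 to 3 in each library of the hypoxia group, a log2 fold change of -3.18 (limma adjusted p = 0.00157). As the strand of counting is not given, it was not tested on which strand these few reads lie or from which gene they came. The next tested gene on the other side of Cyp7b1, Armc1, 888064 bases away, had a log2 fold change of -0.21 (limma adjusted p = 0.137).

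An unnamed locus lies 32450 bases from the 5′ end of Kap, on the opposite strand (chromosome 6 from 133886212 to 133907970). It was at 1.58 to 2.22 FPKM in controls. Hypoxia replicates 1 to 5 held 1.01, 1.06, 0.170, 0.574 and 0.479 FPKM, so that replicates 1 and 2 were the highest and replicate 3 the lowest, as for Kap (log2 fold change -1.06, limma adjusted p = 0.0149; 10 reads in hypoxia replicate 3). On the other side of Kap the nearest tested gene, Gm45769, had a log2 fold change of -0.058 (limma adjusted p = 0.822). Beside Gusb, Vkorc1l1 and Asl had log2 fold changes of 0.19 and 0.32 and did not pass (limma adjusted p = 0.0901 and 0.323).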
